A study of Mus musculus with 8 samples.

Results

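The genes described here are the inhibitors of cyclin-dependent kinases (CDKs) and the retinoblastoma family of pocket proteins, chosen by name as 10 genes, *Cdkn1a*, *Cdkn1b*, *Cdkn1c*, *Cdkn2a*, *Cdkn2b*, *Cdkn2c*, *Cdkn2d*, *Rb1*, *Rbl1* and *Rbl2*. Of the 18605 genes in the deposited table, 9 are members, and 7 of these had enough reads to be tested among 13470 genes. *Cdkn1c* and *Cdkn2a* were listed with almost no reads. *Cdkn2b* was not among the genes listed, so its level is not known here. Of the genes listed, 0 had a count of 0 in every library, so a gene without reads may have been left out. RNA was sequenced from C3H10T1/2 cells, a mesenchymal stem cell line from C3H mouse embryo, in 4 groups of 2 libraries. Some cells had a non-target control (NC). In others *Nap1l2*, a gene for a nucleosome assembly protein, was targeted by a lentiviral shRNA (KD-Nap1l2). Both were harvested either uninduced or following osteogenic induction for 7 days, and the induced groups are called NC-7d and KD-Nap1l2-7d. The paper's osteogenic medium included dexamethasone, ascorbic acid and β-glycerol phosphate. No group was kept for 7 days without induction, so changes given as with induction cannot be told apart from time in culture. All groups come from 1 line, and no label ties the 2 libraries of a group to separate cultures, so p-values measure the spread between these libraries, which may be technical. In GRCm38.p6 the 7 tested genes lie at chr17:29090979-29100722 (*Cdkn1a*), chr6:134920401-134925525 (*Cdkn1b*), chr4:109660876-109666756 (*Cdkn2c*), chr9:21288459-21291421 (*Cdkn2d*), chr14:73192858-73325951 (*Rb1*), chr2:157145893-157204534 (*Rbl1*) and chr8:91070057-91123844 (*Rbl2*).

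CDK inhibitors hold the cell cycle back in G1. The CIP/KIP proteins, p21 (*Cdkn1a*), p27 (*Cdkn1b*) and p57 (*Cdkn1c*), bind complexes of a cyclin and a CDK, mainly those of CDK2. The INK4 proteins, p16 (*Cdkn2a*), p15 (*Cdkn2b*), p18 (*Cdkn2c*) and p19 (*Cdkn2d*), bind CDK4 and CDK6 and keep them from cyclin D. The kinases phosphorylate the pocket proteins RB (*Rb1*), p107 (*Rbl1*) and p130 (*Rbl2*), which in their unphosphorylated form hold E2F factors and so keep genes of DNA synthesis and mitosis low. In mesenchymal cells, p16 and p21 are the usual RNA and protein markers of senescence, and p27 and the pocket proteins are known for the cell cycle exit that goes with differentiation.

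The start sites of the members whose values moved most, and of *Rbl1*, are shown as RefSeq sequence of GRCm38.p6, 5′ to 3′ on the strand of the gene. Of *Rbl1* and *Rbl2*, the pocket protein genes searched here, only *Rbl1* had an E2F word before its start. Capitals mark E2F words (TTGGCGC, with the variants TTCCCGC and also TTGCCGC as well as TTCGCGC) and GC boxes (GGGCGG), on either strand. Of 32851 mouse windows of the 250 bases before a start, 7.89% hold such an E2F word and 32.7% a GC box.
Cdkn2c, upstream start, chr4:109666771-109666800, minus strand: gcgtGGGCGGggcccggccTTCCCGCtccc
Cdkn2c, downstream start, chr4:109665373-109665609, minus strand: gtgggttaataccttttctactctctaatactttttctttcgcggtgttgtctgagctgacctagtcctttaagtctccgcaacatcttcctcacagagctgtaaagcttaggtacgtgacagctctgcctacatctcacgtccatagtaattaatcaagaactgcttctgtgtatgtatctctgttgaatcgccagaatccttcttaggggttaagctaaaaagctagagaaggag
Cdkn2d, chr9:21291304-21291333, minus strand: cgctctGGGCGGggcctgGGGCGGgcttgc
Rbl1, chr2:157204535-157204784, minus strand: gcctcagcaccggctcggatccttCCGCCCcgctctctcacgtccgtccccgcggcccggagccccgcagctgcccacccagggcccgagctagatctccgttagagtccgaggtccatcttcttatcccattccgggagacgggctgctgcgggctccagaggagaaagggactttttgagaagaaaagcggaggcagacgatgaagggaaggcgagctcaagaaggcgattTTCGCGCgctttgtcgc
Cdkn1a, chr17:29093519-29093768, plus strand: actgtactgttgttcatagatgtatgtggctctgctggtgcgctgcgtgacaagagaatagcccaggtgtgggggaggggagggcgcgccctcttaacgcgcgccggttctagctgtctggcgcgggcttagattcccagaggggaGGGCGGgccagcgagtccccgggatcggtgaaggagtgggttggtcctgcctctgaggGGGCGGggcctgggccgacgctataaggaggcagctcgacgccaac
The upstream *Cdkn2c* stretch covers 44 to 15 bases before the RefSeq start at position 109666756, and GENCODE vM21 places it in exon 1 of a longer model. The downstream *Cdkn2c* window holds neither motif and lies in the intron after that exon, directly before the start of the other transcript at position 109665372. No 2 of the matches shown overlap. The *Cdkn2d* stretch covers 124 to 95 bases before its RefSeq start at position 21291209, with its 3′ end in exon 1 of the longer GENCODE model, and holds 2 of its 3 GC boxes. The E2F word of *Rbl1* begins 17 bases before the start. The *Cdkn1a* window precedes the start of transcript NM_007669.5 and overlaps a noncoding gene on the other strand, whose reads cannot be told apart from those of *Cdkn1a* exon 1 where strand is not used in counting. Windows before the starts of *Cdkn1b*, *Rbl2* and the other start of *Cdkn1a* held no E2F word. No RefSeq window was available here for *Rb1* or *Cdkn1c*, so these were not searched.

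Libraries held between 17420284 and 19427359 estimated counts, so that a count of 0 allows up to 3 counts, which is 0.154 to 0.172 CPM (counts scaled to library size). *Nap1l2* itself did not check the knockdown at this depth, since it had 3 and 3 estimated counts in NC, 2 and 7 in the libraries labelled KD-Nap1l2, 15 and 5 in NC-7d and 7 and 13 in those labelled KD-Nap1l2-7d. Within these libraries, directions between NC and knockdown therefore rest on the labels. The paper reports knockdown in the same cell line by western blot and qPCR, without tying it to these libraries. Of 12 mesenchymal markers, 11 had enough reads to be tested (FPKM from 0.59 for *Thy1* to 4538 for *Vim* over the libraries). Among them *Thy1* was low, with 19 to 183 counts, and the untested marker *Nt5e* had 0 to 3 counts. *Ptprc* and *Epcam*, which define blood and epithelial cells, had at most 4 and 1 counts. Of the other blood, epithelial and endothelial markers, *Ly6c2* had 642 to 1525 counts, *Cdh1* 27 to 150 and *Tek* 10 to 102, and the rest had at most 25. The adipocyte markers *Adipoq* and *Plin1* had at most 18 and 2 counts, and *Cidec* and *Lep* at most 3 and 2. *Fabp4* had 91 to 1948 and *Pparg* 623 to 1383. With induction edgeR called both of these higher (adjusted p under 0.05). The log2 fold changes in control and knockdown cells were 4.087 and 3.115 for *Fabp4* and 1.087 and 0.909 for *Pparg*. The *Pparg* calls did not hold under every alternative. The 12 mesenchymal markers summed to 17430–24044 CPM in the 4 libraries without induction and 11079–14663 in the 4 induced ones, and 6 adipocyte markers to 39.7–56.7 and 146–191. Their part in the changes of the members was not tested. The 2 NC-7d libraries stood apart from each other, since 25 genes of G2 and mitosis summed to 949 CPM in replicate 1 and 1944 in replicate 2, against 1898 and 2049 in NC, so the values that moved most with either one left out are given beside their results.

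The level per transcript length (FPKM, reads scaled to transcript length and library size) was led by *Cdkn1a* in every group. In NC, *Cdkn1a* had 139 ± 14.7 FPKM (SD, n = 2 in every group), followed by *Cdkn1b* with 52.98 ± 1.05, *Cdkn2c* with 42.7 ± 0.0283, *Cdkn2d* with 18.4 ± 0.467, *Rbl2* with 17.8 ± 0.877, *Rb1* with 8.29 ± 0.7 and *Rbl1* with 7.45 ± 1.69. Neighbours in this order whose libraries overlapped in NC were *Cdkn2d* and *Rbl2*, and *Rb1* and *Rbl1*. In KD-Nap1l2-7d the order was *Cdkn1a*, *Cdkn1b*, *Cdkn2c*, *Rbl2*, *Cdkn2d*, *Rb1* and *Rbl1*, and there *Cdkn2c* overlapped with *Rbl2*, and *Cdkn2d* with *Rb1*. Of the FPKM summed over the 6 CDK inhibitor genes listed, *Cdkn1a* made up 56.5% and 53.2% in NC, 68.3% and 72.4% in KD-Nap1l2, 69.5% and 64.0% in NC-7d and 84.2% and 79.3% in KD-Nap1l2-7d. Both libraries of KD-Nap1l2-7d lay above all other 6. The share of *Cdkn2c* in the same sum was 16.1% and 17.7% in NC and 4.17% and 5.40% in KD-Nap1l2-7d, the lowest of the 8 libraries.

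**Figure D1:**
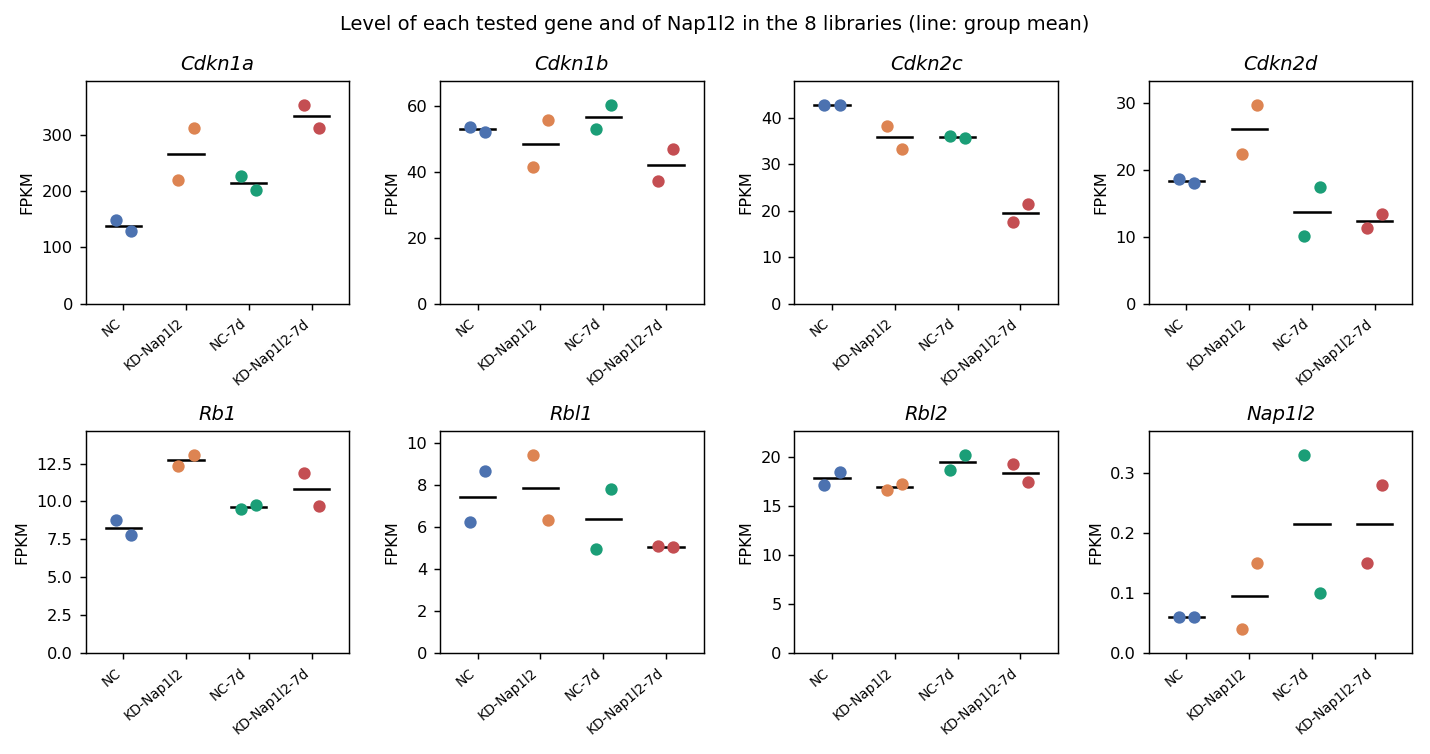
FPKM (y axis, from 0) of the 7 tested genes and of *Nap1l2* in each group (x axis), with a point for each library and a line for the group mean of 2. *Cdkn1a* lies at 129–149 FPKM in NC and 314–354 in KD-Nap1l2-7d, *Cdkn2c* is lowest in KD-Nap1l2-7d at 17.5–21.4, *Rbl2* stays between 16.7 and 20.2, and *Nap1l2* is under 0.4 in every library.

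Among the CIP/KIP genes, *Cdkn1a*, a target of p53 whose product stops CDK2 and binds PCNA, had the widest span. It had 5258 and 4463 normalized counts in NC, 7318 and 11367 in KD-Nap1l2, 8078 and 6861 in NC-7d and 12274 and 11012 in KD-Nap1l2-7d. Every library labelled as knockdown lay above both control libraries of its time, and both NC-7d libraries lay above NC. The log2 fold change between KD-Nap1l2 and NC was 0.94 (SE 0.22), and edgeR's quasi-likelihood test put its adjusted p at 0.140, so the difference did not pass the threshold of 0.05. DESeq2's Wald test gave an adjusted p of 0.00211 for the same contrast, and the 2 KD-Nap1l2 libraries differed enough that the value was 1.23 (adjusted p = 0.0236, edgeR) without replicate 1 and 0.59 without replicate 2. After 7 days the difference was 0.64 (SE 0.22, adjusted p = 0.544), and averaged over both times it was 0.79 (SE 0.16, adjusted p = 0.108). This average was called by DESeq2 (adjusted p = 0.000142) and by edgeR with no filter on low counts (0.0452) or without KD-Nap1l2 replicate 1 (0.93, adjusted p = 0.0189). With induction the log2 fold change was 0.62 (SE 0.22, adjusted p = 0.133) in control cells and 0.32 (SE 0.22, adjusted p = 0.360) in cells labelled knockdown. The latter rested on KD-Nap1l2, being 0.034 without its replicate 1 and 0.67 without its replicate 2, while the control value was 0.50 without NC-7d replicate 1 and 0.73 without replicate 2. The value in control cells was also 0.62 without either KD-Nap1l2 library and was then called, with adjusted p of 0.0445 without replicate 1 and 0.0442 without replicate 2. Between 91.5% and 98.5% of the FPKM of *Cdkn1a* in each library was assigned to NM_007669.5, whose start is shown above, and the rest to NM_001111099.2.

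*Cdkn1b*, whose p27 protein gathers in resting and differentiating cells and is regulated largely through its breakdown, had 2383 and 2283 normalized counts in NC, 1737 and 2564 in KD-Nap1l2, 2386 and 2590 in NC-7d and 1632 and 2079 in KD-Nap1l2-7d. The groups overlapped before induction, and after 7 days both libraries labelled KD-Nap1l2-7d lay below NC-7d, with a log2 fold change of -0.42 (SE 0.20, adjusted p = 0.671), or -0.26 without KD-Nap1l2-7d replicate 1. The ratio of *Cdkn1a* to *Cdkn1b* in FPKM was 2.78 and 2.46 in NC, 5.31 and 5.59 in KD-Nap1l2, 4.27 and 3.34 in NC-7d and 9.49 and 6.68 in KD-Nap1l2-7d. *Cdkn1c*, an imprinted gene of p57, had 10 estimated counts in NC-7d replicate 1, 2 in KD-Nap1l2-7d replicate 2, 1 in NC replicate 1 and 0 in the other 5 libraries, and no fold change is given.

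Among the INK4 genes, *Cdkn2c* and *Cdkn2d* were the members that passed the test, both lower after induction in the cells labelled knockdown. *Cdkn2c* had 1147 and 1217 normalized counts in NC, 1101 and 994 in KD-Nap1l2, 914 and 967 in NC-7d and 472 and 581 in KD-Nap1l2-7d. The libraries of KD-Nap1l2-7d lay below the other 6. With induction in the knockdown cells *Cdkn2c* was 1.99-fold lower, a log2 fold change of -0.99 (SE 0.14, adjusted p = 0.00493, edgeR), and the adjusted p ran from 1.92e-06 to 0.0543 over the alternatives, missing the threshold only without KD-Nap1l2-7d replicate 1. In control cells the change was -0.33 (SE 0.14, adjusted p = 0.184). The difference of the 2 induction responses was -0.66 (SE 0.19), with an unadjusted p of 0.00886 and an adjusted p of 0.554, so a larger response in the knockdown cells was not shown over all genes. After 7 days *Cdkn2c* was lower in KD-Nap1l2-7d than in NC-7d by -0.84 (SE 0.14, adjusted p = 0.443, edgeR), with an unadjusted p of 0.000307 and an adjusted p of 0.00372 from DESeq2. Before induction the contrast was -0.17 (SE 0.14, adjusted p = 0.622).

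Reads of *Cdkn2c* were divided by the authors' counting between 2 transcripts, which share their last exon and part of another and differ in their first exon. NM_001301368.1, from the upstream start, had 16.7 and 21.8 FPKM in NC, 22.8 and 16.9 in KD-Nap1l2, 10.6 and 16.6 in NC-7d and 7.31 and 8.81 in KD-Nap1l2-7d. NM_007671.3, from the downstream start in the intron, had 26.0 and 20.9 in NC, 15.4 and 16.4 in KD-Nap1l2, 25.4 and 18.9 in NC-7d and 10.2 and 12.6 in KD-Nap1l2-7d. Both were lowest in KD-Nap1l2-7d, so the fall of the gene was seen in each transcript. The mean FPKM in KD-Nap1l2-7d was 40.6% of KD-Nap1l2 for the upstream transcript and 71.4% for the downstream one, while KD-Nap1l2 had 103% of the NC mean for the upstream transcript and 67.8% for the downstream one. These splits are estimates from shared reads and were not tested. Before induction the downstream transcript was lower in both libraries labelled KD-Nap1l2 than in either NC library, and the upstream transcript overlapped between these groups.

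**Figure D2:**
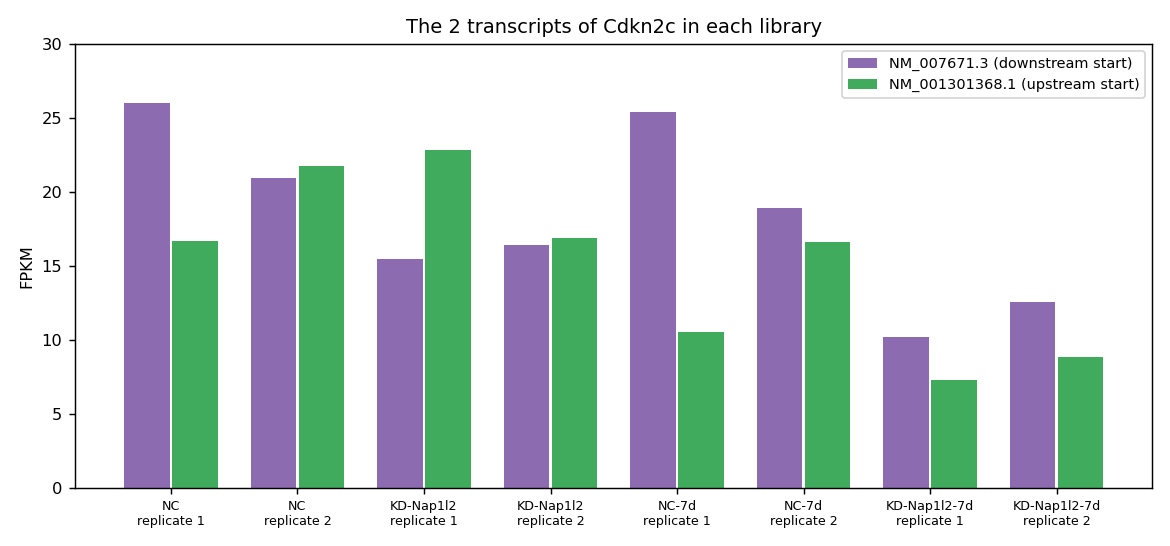
FPKM (y axis, from 0) of the 2 *Cdkn2c* transcripts in each of the 8 libraries (x axis), as bars without error since each is 1 library. Both transcripts are lowest in the 2 KD-Nap1l2-7d libraries, at 7.31–8.81 for the upstream and 10.2–12.6 for the downstream start, and the downstream transcript is higher in NC replicate 1 and NC-7d replicate 1 than in all other libraries.

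*Cdkn2d*, whose p19 protein rises and falls with the cell cycle, had 431 and 411 normalized counts in NC, 489 and 710 in KD-Nap1l2, 235 and 389 in NC-7d and 258 and 311 in KD-Nap1l2-7d. All 4 induced libraries lay below all 4 without induction. With induction in the knockdown cells it was 2.11-fold lower, a log2 fold change of -1.07 (SE 0.27, adjusted p = 0.0359, edgeR), and this call was lost without either NC library, without KD-Nap1l2 replicate 2 and without either KD-Nap1l2-7d library (adjusted p from 0.0646 to 0.217). In control cells the change was -0.43 (SE 0.27, adjusted p = 0.365), with -0.84 if NC-7d replicate 2 was left out and -0.11 if replicate 1 was, neither called. Before induction *Cdkn2d* was higher in both libraries labelled KD-Nap1l2, by 0.51 (SE 0.26, adjusted p = 0.447), or 0.22 without KD-Nap1l2 replicate 2, and after 7 days the groups overlapped at -0.14 (SE 0.27, adjusted p = 0.950), which became 0.28 without NC-7d replicate 2 and -0.45 without replicate 1. NM_009878.3 took 91.9% to 100% of its FPKM.

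*Cdkn2a*, which codes for p16 and, from another first exon and reading frame, for ARF, had 1 estimated count in KD-Nap1l2 replicate 2, 1 in KD-Nap1l2-7d replicate 2 and 0 in the other 6 libraries. All libraries are thus at or under the limit of 3 counts, and a difference between groups was not detectable at this depth. The transcript listed, NM_001040654.1, is the one that starts at position 89282192 of chromosome 4, and the ARF transcript, from a start at 89294619 with an E2F word 98 bases before it, was not analysed here. Of the 10 Polycomb genes listed for their action at this locus, 2 were lower with induction in the knockdown cells, *Rnf2*, a ubiquitin ligase for histone H2A, with -0.70 (SE 0.14, adjusted p = 0.0174) and *Cbx8* with -0.61 (SE 0.17, adjusted p = 0.0480). In that comparison 14.2% of all genes were called and 7.36% as lower. Without either KD-Nap1l2-7d library both calls were lost, with an adjusted p of up to 0.133 for *Rnf2* and 0.219 for *Cbx8*, and that of *Cbx8* was also lost under 8 other alternatives.

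Among the pocket proteins, *Rb1* had 748 and 655 normalized counts in NC, 999 and 1152 in KD-Nap1l2, 825 and 811 in NC-7d and 991 and 831 in KD-Nap1l2-7d. In normalized counts it was higher in both libraries labelled knockdown at both times, by 0.62 (SE 0.14, adjusted p = 0.131, edgeR) before induction and 0.16 (SE 0.14, adjusted p = 0.851) after 7 days. The value after 7 days was 0.024 without KD-Nap1l2-7d replicate 1 and 0.27 without replicate 2, and in FPKM replicate 2, at 9.73, lay below NC-7d replicate 2, at 9.77. DESeq2's adjusted p before induction was 0.0320. With induction *Rb1* had a log2 fold change of 0.22 (SE 0.14, adjusted p = 0.377) in control cells and of -0.24 (SE 0.14, adjusted p = 0.281) in knockdown cells, without overlap of the libraries in either (-0.37 and -0.125 in knockdown cells without KD-Nap1l2-7d replicates 1 and 2), and the difference of these responses, -0.46 (SE 0.20), had an unadjusted p of 0.0491 and an adjusted p of 0.703.

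*Rbl1*, itself an E2F target gene that is expressed in cycling cells, had 533 and 727 normalized counts in NC, 749 and 524 in KD-Nap1l2, 429 and 640 in NC-7d and 413 and 437 in KD-Nap1l2-7d. The libraries of KD-Nap1l2-7d lay below those of KD-Nap1l2, with -0.58 (SE 0.25, adjusted p = 0.160), which became -0.30 if KD-Nap1l2 replicate 1 was left out and -0.82 if replicate 2 was, and the NC-7d libraries overlapped with NC at -0.24 (SE 0.25, adjusted p = 0.612), which was -0.55 if NC-7d replicate 2 was left out and 0.024 if replicate 1 was. *Rbl2*, whose p130 protein prevails in resting cells, had 1571 and 1657 in NC, 1439 and 1633 in KD-Nap1l2, 1732 and 1790 in NC-7d and 1742 and 1598 in KD-Nap1l2-7d. Its log2 fold changes lay between -0.08 and 0.13 in all 4 comparisons between groups (SE 0.12 each, adjusted p from 0.528 to 0.938). The ratio of *Rbl1* to *Rbl2* in FPKM was 0.364 and 0.469 in NC, 0.567 and 0.365 in KD-Nap1l2, 0.265 and 0.385 in NC-7d and 0.263 and 0.288 in KD-Nap1l2-7d, so that both KD-Nap1l2-7d libraries lay below both KD-Nap1l2 libraries while NC-7d overlapped with NC.

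**Figure D3:**
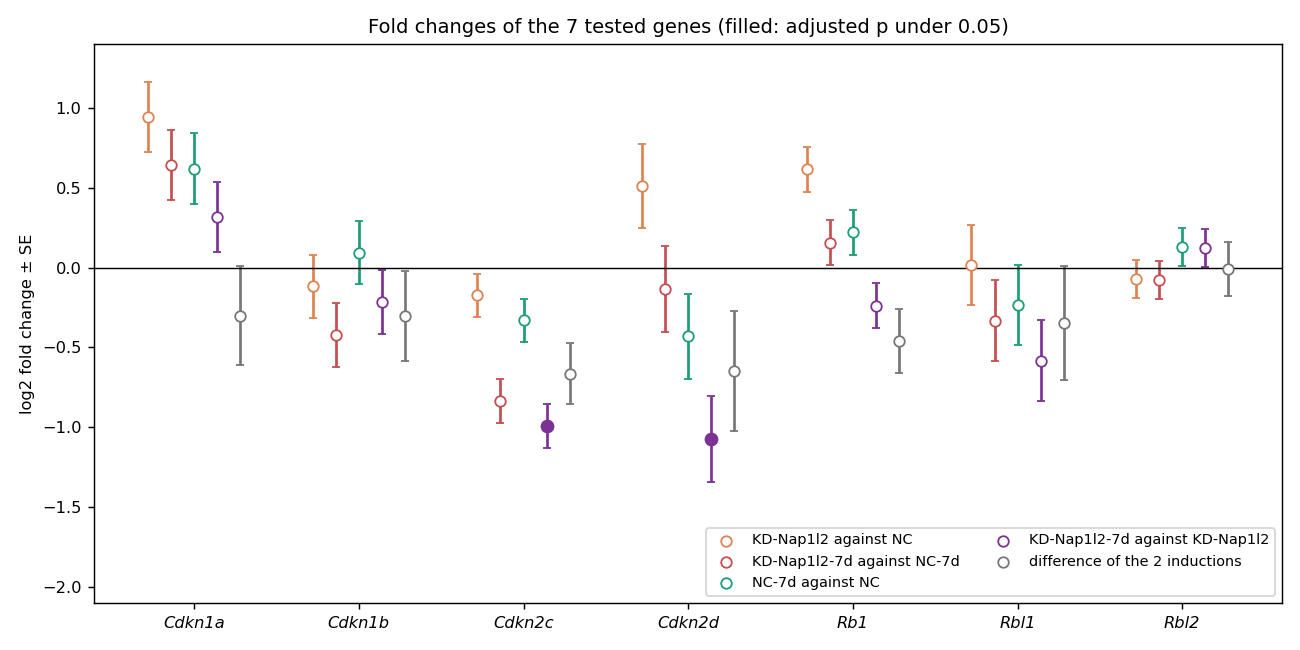
Log2 fold change with its standard error (y axis) of the 7 tested genes (x axis) in the 4 comparisons between groups and for the difference of the 2 induction responses, from edgeR, with filled points where the adjusted p is under 0.05. The filled points are *Cdkn2c* (-0.99) and *Cdkn2d* (-1.07) with induction in the knockdown cells, and the *Cdkn1a* values of both knockdown comparisons, 0.94 and 0.64, are open.

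The counts of members called are read beside those over all 13470 genes. Between KD-Nap1l2 and NC, edgeR called 0 of 7 members (2 at an unadjusted p under 0.05, 2 called by DESeq2 and 0 by limma) and 11 genes in all, or 0.0817%. Among all genes, 1852 had an unadjusted p under 0.05. The libraries of these groups did not overlap for 4 members, *Cdkn1a*, *Cdkn2c*, *Cdkn2d* and *Rb1*, beside 43.2% of all genes. Between KD-Nap1l2-7d and NC-7d, edgeR called 0 of 7 members (2 at an unadjusted p under 0.05, 1 called by DESeq2 and 0 by limma) and 0 genes in all, or 0.0%, with 1057 genes at an unadjusted p under 0.05, 79 called by DESeq2 and 0 by limma. Groups did not overlap for 4 members, beside 42.1% of all genes. Induction in control cells gave 0 calls among the members by edgeR, DESeq2 and limma (2 at an unadjusted p under 0.05). Among all genes, edgeR called 1106 or 8.21% there, and 3300 had an unadjusted p under 0.05. The groups did not overlap for 6 of 7 members, beside 57.8% of all genes. Induction in the knockdown cells gave 2 of 7, both lower, where 14.2% of all genes were called and 7.36% were called as lower, and 4 members did not overlap, beside 61.4%. The difference of the 2 responses was called for 0 members (2 at an unadjusted p under 0.05, and 0 called by DESeq2 or limma) and for 0 genes, or 0.0%, with 948 genes at an unadjusted p under 0.05, 98 called by DESeq2 and 0 by limma. Its value was negative for the 7 members, although only -0.006 for *Rbl2*, with a median of -0.35 beside -0.02 over all genes. Without KD-Nap1l2 replicate 2 it was positive for *Cdkn1a* (0.051), *Cdkn1b* (0.003) and *Rbl2* (0.089), and that of *Rbl2* also turned positive without NC replicate 1, NC-7d replicate 2 or KD-Nap1l2-7d replicate 2.

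In contrasts added after the values were seen, the knockdown averaged over both times called 0 members (3 at an unadjusted p under 0.05, 2 by DESeq2 and 0 by limma) and 0.0594% of all genes. Of the 13470 genes, 1981 had an unadjusted p under 0.05 in this average. *Cdkn2c* had -0.51 (SE 0.10, adjusted p = 0.106) here, with an adjusted p of 0.00610 from DESeq2 and of 0.0417 from edgeR without KD-Nap1l2 replicate 1, where the value was -0.54. Induction averaged over both kinds of cell called *Cdkn2c*, with -0.66 (SE 0.10, adjusted p = 0.00287), and *Cdkn2d*, with -0.75 (SE 0.19, adjusted p = 0.0240), where 25.5% of all genes were called and 12.7% were called as lower. The *Cdkn2d* call was lost without either NC library, KD-Nap1l2 replicate 2 or either KD-Nap1l2-7d library (adjusted p from 0.0571 to 0.0968). *Cdkn1a* had 0.47 (SE 0.16, adjusted p = 0.0604) in this average, and it was called by DESeq2 (0.0173) by limma on log2(FPKM + 1) (0.0345), by edgeR with no filter (0.0485) and by edgeR without KD-Nap1l2 replicate 2 (0.65, adjusted p = 0.0113).

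Among the genes downstream of the pocket proteins, those of G2 and mitosis were called most often, with induction in the knockdown cells. Of 25 genes of G2 and mitosis, 17 were called lower there and 0 higher, beside 7.36% of all genes called as lower. Their median log2 fold change was -1.19, beside -0.01 over all genes. The largest falls were in *Cenpf* (-1.47, SE 0.31, adjusted p = 0.0213) and *Kif23* (-1.46, SE 0.26, adjusted p = 0.0123), genes of the kinetochore and of cytokinesis, and in *Cdc25c* (-1.44, SE 0.28, adjusted p = 0.0170), a phosphatase that activates CDK1, and *Prc1* (-1.40, SE 0.35, adjusted p = 0.0370), a spindle midzone gene. *Cenpf* had 1252 and 963 normalized counts in NC, 1326 and 1547 in KD-Nap1l2, 461 and 962 in NC-7d and 535 and 502 in KD-Nap1l2-7d. The count of 17 was 0 without either KD-Nap1l2-7d library, 6 and 2 without KD-Nap1l2 replicates 1 and 2, 7 without either NC library and 25 without either NC-7d library, with medians between -1.23 and -1.11. In control cells 0 of the 25 were called by edgeR (2 at an unadjusted p under 0.05, 0 by DESeq2 or limma) and the median was -0.37, while without NC-7d replicate 2 the median was -1.01 with 22 called lower, and without NC-7d replicate 1 it was 0.01 with 0 called. The knockdown median after 7 days was -0.40 and became 0.20 without NC-7d replicate 2 and -0.83 without replicate 1, with 0 called by edgeR in each and 0 at an unadjusted p under 0.05 with all libraries. Before induction it was 0.34, with 25 of 25 positive and 0 called by edgeR, DESeq2 or limma (0 at an unadjusted p under 0.05). *Cdkn2d* and *Rbl1*, with the values given above, were likewise lower in NC-7d replicate 1 than in replicate 2.

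**Figure D4:**
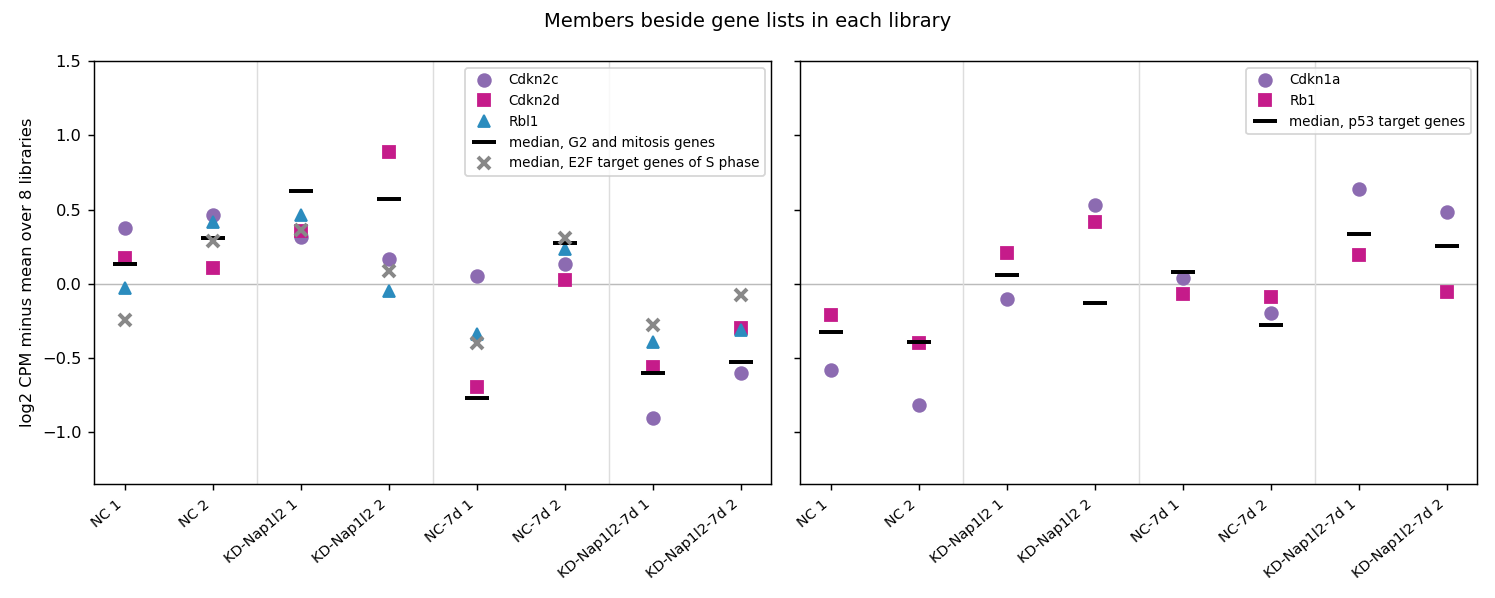
Log2 CPM minus the mean over the 8 libraries (y axis) in each library (x axis) for *Cdkn2c*, *Cdkn2d* and *Rbl1* with the medians of 25 G2 and mitosis genes and 30 S-phase genes (left), and for *Cdkn1a* and *Rb1* with the median of 18 p53 target genes (right). The mitosis median is -0.77 in NC-7d replicate 1 and 0.27 in NC-7d replicate 2, and it is between -0.60 and -0.52 in both KD-Nap1l2-7d libraries.

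Of 30 E2F target genes of S phase, 1 was lower with induction in the knockdown cells, *Slbp*, which binds the end of histone mRNA, with -0.57 (SE 0.14, adjusted p = 0.0314), and the median was -0.46. In that comparison 14.2% of all genes were called and 7.36% as lower. The call of *Slbp* was lost under limma and without either NC, KD-Nap1l2 or KD-Nap1l2-7d library (adjusted p up to 0.198), where 0 of the 30 were called, while 4 were called lower without either NC-7d library. In control cells the median was -0.11 and 0 were called by edgeR, DESeq2 or limma (1 at an unadjusted p under 0.05). This median became -0.50, with 1 called lower, when NC-7d replicate 2 was left out, 0.29 when the other NC-7d library was, and 0.20 without NC replicate 2. Of 12 cyclins and CDKs, 0 were called by limma or by edgeR over all 8 libraries in the 4 comparisons between groups (1 to 6 at an unadjusted p under 0.05), where DESeq2 called 5 lower with induction in knockdown cells, 1 higher in control cells and 1 higher before induction. With induction in knockdown cells edgeR called 6 lower when fitted to the compared groups alone, 5 lower without either NC-7d library, 3 with no filter and 1 with the replicate block or without KD-Nap1l2 replicate 2, and in control cells it called 1 higher and 5 lower without NC-7d replicate 2. Averaged over both kinds of cell *Ccna2* (-0.94, SE 0.27, adjusted p = 0.0366) and *Ccnb2* (-0.87, SE 0.24, adjusted p = 0.0316), cyclins of S phase and mitosis, fell with induction and *Cdk6* (0.43, SE 0.11, adjusted p = 0.0234) rose. These calls were each lost without NC replicate 1 and without either KD-Nap1l2-7d library. Other single libraries mattered too, since those of *Ccna2* and *Ccnb2* were lost without NC replicate 2 or KD-Nap1l2 replicate 1. That of *Cdk6* was lost without NC-7d replicate 1. Of 10 E2F and DP factors, *E2f4*, the main partner of p107 and p130, rose in the knockdown cells by 0.56 (SE 0.11, adjusted p = 0.0164), from 760 and 801 normalized counts to 1180 and 1113, a call lost without either KD-Nap1l2-7d library (adjusted p up to 0.131). In the average over both kinds of cell, *E2f4* (0.43, SE 0.08, adjusted p = 0.00668) and *E2f6* (0.45, SE 0.11, adjusted p = 0.0242) were higher after induction and *E2f1* (-0.41, SE 0.12, adjusted p = 0.0421) and *E2f3* (-0.53, SE 0.15, adjusted p = 0.0342) lower. There 1 of the 12 cyclins and CDKs was called higher and 2 lower. For the 10 E2F and DP factors these counts were 2 and 2. Beside them, 25.5% of all genes were called, and 12.7% as lower. The averaged calls of *E2f6*, *E2f1* and *E2f3* were lost without NC replicate 1, KD-Nap1l2-7d replicate 1 and some other single libraries (adjusted p up to 0.0926, 0.147 and 0.120), and that of *E2f4* was not. Of the 7 genes for the MuvB core, B-Myb and FoxM1, *Lin52*, the MuvB subunit through which p130 joins, rose in the knockdown cells from 169 and 151 to 322 and 307 normalized counts (0.97, SE 0.16, adjusted p = 0.00854), which was lost without either KD-Nap1l2-7d library (adjusted p up to 0.0822).

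Of 18 p53 target genes tested, with *Cdkn1a* left out, 15 had a positive log2 fold change between KD-Nap1l2 and NC (median 0.38) and 16 between KD-Nap1l2-7d and NC-7d (median 0.43), beside medians of 0.01 and -0.01 over all genes, and edgeR called 0 in each (4 and 8 at an unadjusted p under 0.05, 1 and 1 by DESeq2, 0 by limma), but 3 higher before induction without KD-Nap1l2 replicate 1. For the knockdown averaged over both times 16 were positive (median 0.45) and edgeR called 0, with 13 at an unadjusted p under 0.05, 7 called by DESeq2, 0 by limma, 2 by edgeR with no filter and 3 without KD-Nap1l2 replicate 1. With induction, edgeR called 651 of all 13470 genes higher in control cells and 921 in knockdown cells. Of the 18 p53 targets, 2 rose in control cells, *Trp53inp1* (1.45, SE 0.20, adjusted p = 0.00713) and *Sesn1* (1.09, SE 0.13, adjusted p = 0.00440), and 3 in knockdown cells, *Trp53inp1* (1.44, SE 0.20, adjusted p = 0.00504), *Mdm2*, the ubiquitin ligase of p53 (1.23, SE 0.23, adjusted p = 0.0136), and *Sesn1* (0.75, SE 0.13, adjusted p = 0.0116). Without either KD-Nap1l2-7d library the latter count was 1, the calls of *Mdm2* (adjusted p up to 0.105) and *Sesn1* (up to 0.0898) being lost, and the count of 2 in control cells was 4 without NC-7d replicate 2. *Mdm2* had 2348 and 2114 normalized counts in NC, 2761 and 2745 in KD-Nap1l2, 4050 and 2463 in NC-7d and 7039 and 5877 in KD-Nap1l2-7d. Its NC-7d libraries were again apart, replicate 2 being near NC.

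Of 15 transcription factors known to act on CDK inhibitor genes, *Cebpb* rose with induction in control (1.36, SE 0.13, adjusted p = 0.00202) and knockdown cells (1.77, SE 0.14, adjusted p = 0.000591), and *Nr3c1*, the glucocorticoid receptor, fell in both (-1.12, SE 0.20, adjusted p = 0.0155, and -1.15, SE 0.20, adjusted p = 0.0106). In knockdown cells *Cebpa*, a factor that holds back proliferation, fell from 198 and 147 to 40.1 and 25.04 normalized counts (-2.40, SE 0.42, adjusted p = 0.0117) and *Myc* rose (0.61, SE 0.17, adjusted p = 0.0455). Of the 15, 1 was called higher and 1 lower with induction in control cells, and 2 and 2 in knockdown cells. Beside these counts, 8.21% and 14.2% of all genes were called. Without either KD-Nap1l2-7d library the knockdown-cell calls of *Nr3c1* (adjusted p up to 0.0947), *Cebpa* (up to 0.103, with values from -2.77 to -1.45 over the alternatives) and *Myc* (up to 0.277, lost under 11 alternatives) were lost, and that of *Nr3c1* in control cells was lost without NC replicate 1 (0.121) or NC-7d replicate 1. None of the 9 ubiquitin ligase parts that act on p27 and p21 was called by edgeR, DESeq2 or limma in any of the 4 comparisons between groups (0 to 3 at an unadjusted p under 0.05), and their medians lay between -0.05 and 0.04.

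The genes with the most similar pattern were taken as those with the smallest root mean square difference in centred log2 CPM over the 8 libraries, among 11278 genes compared. For *Cdkn2c* they were *D630045J12Rik* (0.079), *Fstl1* (0.097) and *Zfp704* (0.139), where the median over all genes was 0.513. *Cdkn2d* was closest to *Oip5* (0.105), *Col1a1* (0.110) and *Kif18a* (0.113), with a median of 0.530. For *Cdkn1a* they were *Rassf5* (0.119), *Slc19a2* (0.128) and *Plag1* (0.139), with a median of 0.541. *Rbl1* was closest to *Ercc6l* (0.065), *Gen1* (0.096) and *Cdca7* (0.098), and *Rb1* to *Pigf* (0.062), *Hdac8* (0.076) and *Wipi1* (0.077). *Cdkn1b* was closest to *Tbx1* (0.085), *Pheta1* (0.102) and *Fuz* (0.104), and *Rbl2*, which spanned only 0.32 on this log2 scale, to *H2afy* (0.041), *Npat* (0.047) and *Il10rb* (0.048).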

How the data were processed

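RNA-seq of C3H10T1/2 cells was analysed in 4 groups of 2 libraries, grouped by their GEO labels. Beijing Genomics Institute made and sequenced the libraries. The submitters' processing notes name BWA, Bowtie2, RSEM and the build GRCm38.p6, without versions of the tools. The authors deposited estimated counts per gene and per transcript, with non-whole values in 41.1% of genes, and FPKM values, scaled by the authors to transcript length and library size. How strand was used in counting is not given in the sources used here. Deposited tables of the authors' own comparisons hold fold changes and p-values and were not used.

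Estimated counts were rounded, scaled by TMM and filtered with filterByExpr, and 1 model over all 8 libraries was fitted with edgeR 4.0.16 in R 4.3.3. Quasi-likelihood p-values for 13470 genes took the Benjamini-Hochberg adjustment, and calls are adjusted p under 0.05. SE stands for the absolute log2 fold change over the square root of F. Normalized counts are counts over effective library size. FPKM were used to compare levels between genes or transcripts, to describe levels in each group, and in limma. The comparisons share groups. With 2 libraries against 2, an exact permutation test cannot go below 0.333, so none is given. Limits for 0 counts cover counting error only.

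The members and lists were chosen with earlier results of these data known. Named are the members, *Nap1l2*, up to 4 called genes per list and comparison with the largest change, and 3 similar genes per member averaging 50 or more normalized counts. *Skp1* was matched through the RefSeq table, as 1 older symbol. Markers named beside the libraries were taken from a list for each cell type. Alternatives were limma 3.58.1 on log2(FPKM + 1) and log2(FPKM + 0.1), DESeq2 1.42.0, each library left out, transcript counts summed per gene, a block for the replicate number, RLE size factors, a fit restricted to the groups compared, no filter, and at least 10 counts in every library. Promoter windows were matched for 8 members. Figures were drawn with matplotlib 3.10.9 in Python 3.11.15.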

Additional observations from a re-analysis of the deposited data

Results flagged for a closer look

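*Rb1* had opposite directions under induction in the 2 kinds of cell. Both NC-7d libraries lay above both NC libraries and both KD-Nap1l2-7d libraries lay below both KD-Nap1l2 libraries, and the difference of the log2 fold changes, knockdown minus control, was -0.461 (SE 0.20). edgeR's quasi-likelihood test gave it an unadjusted p of 0.0491 and an adjusted p of 0.703, so it did not pass over all genes. No group had the 4 samples needed to test for a library far from the others.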

How the results depend on the processing

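Over all genes, DESeq2 called 460 genes between KD-Nap1l2 and NC, 79 between KD-Nap1l2-7d and NC-7d, 98 for the difference of the 2 induction responses and 476 for the averaged knockdown, where edgeR called 11, 0, 0 and 8. With no filter on low counts these were 160, 0, 1 and 131, and with at least 10 counts in every library 4, 0, 0 and 0. limma on log2(FPKM + 1) called 33 before induction and 22 in the averaged knockdown, limma on log2(FPKM + 0.1) called 18 before induction, and a fit restricted to NC and KD-Nap1l2 called 0 there. Of the members, DESeq2 called 2 before induction, 1 after 7 days, 2 in the averaged knockdown and 3 in averaged induction, limma called 3 in averaged induction with either pseudocount, and the fit with no filter called 1 and 3 in the 2 averages. The causes were not tested.

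Same-numbered libraries did not deviate together (correlations from -0.061 to 0.104). With the replicate number as a block, 4 genes were called between KD-Nap1l2 and NC and 2 in the averaged knockdown, and 961 and 1757 with induction in control and knockdown cells, and the counts of members called, 0 in each knockdown comparison and 2 with induction in knockdown cells, were as without it.

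Leaving out 1 library at a time gave 0 to 562 genes called before induction, 0 to 1 after 7 days, 122 to 1490 with induction in control cells, 305 to 2218 in knockdown cells, 0 to 19 for the difference, 0 to 570 for the averaged knockdown and 1684 to 3918 for averaged induction. Members called ran from 0 to 1 before induction and with induction in control cells, 0 to 2 with induction in knockdown cells and in the averaged knockdown, and 1 to 2 in averaged induction. A group left with 1 library was assumed to vary like the others. Uncalled log2 fold changes that changed sign ran from -0.43 to 0.14 for *Cdkn1b*, -0.27 to 0.26 for *Rbl1* and -0.17 to 0.018 for *Rbl2* before induction, -0.45 to 0.28 for *Cdkn2d* after 7 days, -0.55 to 0.024 for *Rbl1* with induction in control cells and -0.47 to 0.10 for *Cdkn1b* in knockdown cells. For the difference they ran from -0.59 to 0.051 for *Cdkn1a*, -0.56 to 0.003 for *Cdkn1b* and -0.095 to 0.089 for *Rbl2*, and in the averages from -0.30 to 0.001 for *Rbl1* (knockdown), -0.19 to 0.10 for *Cdkn1b* and -0.073 to 0.049 for *Rb1* (induction). No member changed sign under the other settings, where 410 member values kept their side of the threshold and 10 passed it. For the other genes named, 140 calls were lost and 356 kept over the libraries left out, and 21 lost and 507 kept under the other settings. With 2 libraries a group and up to 3 counts allowed where none was seen, *Cdkn1c* and *Cdkn2a* cannot be compared.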
